A study of Homo sapiens with 18 samples.

Results

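The genes described here are 57 regulators of mitosis, chosen by name: the mitotic cyclins and CDK1, the mitotic kinases, the spindle checkpoint, the chromosomal passenger proteins, the ubiquitin enzymes that end mitosis, spindle and chromosome proteins, cytokinesis and centriole genes, and the transcription regulators of this programme. All 57 of the 57 listed genes were measured, among 18417 genes in all, each through 1 probe set that names a single gene. The cells were Raji, an established line of human B cells derived from Burkitt lymphoma and carrying Epstein-Barr virus. Per the labels, every culture received phorbol ester at 0.05 µM and sodium n-butyrate at 3 mM to induce the cells, with maslinic acid, a plant triterpenoid, at 19 µM, and was harvested after 0, 4, 8, 12, 24 or 48 h. There were 3 arrays at each time, 18 in all, which the labels call biological replicates. The 0 h arrays carry the same 3 agents in their labels, which do not say whether or how long those cells had been exposed. Each comparison is between harvest times, and no group labelled as free of butyrate, phorbol ester or maslinic acid was analysed here. The agents and time in culture cannot be told apart in this design.

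Entry into mitosis is driven by CDK1 bound to cyclin B, which CDC25 phosphatases switch on and Polo and Aurora kinases amplify. The spindle checkpoint holds the anaphase-promoting complex in check until every chromosome is attached, and then CDC20 turns that ubiquitin ligase on securin and cyclin B. Most of these genes are transcribed late in the cell cycle, through the MuvB core complex with MYBL2 and FOXM1 in dividing cells and with the pocket proteins and E2F4 in resting cells.

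The deposited values were taken as log2 from their range, so a difference of 1 is a change of 2-fold. Array medians lay between 4.03 and 4.25, and the interquartile range was narrowest, at 2.37, on replicate 2 of 8 h. Of the 8 B cell markers listed, 6 were measured. MS4A1 (CD20) averaged 10.03 ± 0.48 and PAX5 7.19 ± 0.28 at 0 h (SD, n = 3). CD79B was lower at 0 h, at 5.70, 5.85 and 6.32, and BLK was the lowest of the 6, at 4.29, 4.89 and 4.53. Listed markers of T cells, monocytes, epithelium and fibroblasts averaged 3.19 to 3.83 per list on every array. Of these 18 genes, CD3D alone was called higher, at 24 h (4.84 against 3.27 at 0 h), and of the 6 B cell markers 2 were called lower at 8 h, then 4 at 12 h (median difference of the list -1.06), 1 at 24 h and 2 at 48 h; their part in the results was not tested. A gene was called at an adjusted p under 0.05 in limma, with Benjamini-Hochberg adjustment over all genes within each comparison. In bulk RNA such as this, fewer cells in the late cell cycle and less of these messages per cell cannot be told apart.

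Most of the mitotic regulators were not called different from 0 h up to 12 h, and by 48 h nearly all were lower. Over the harvests at 0, 4, 8, 12, 24 and 48 h, in that order, their mean log2 level was 7.83, 7.71, 7.57, 7.44, 6.55 and 5.58, with an SD over 3 arrays of 0.03 to 0.29. At 48 h, 53 of the 57 were called lower than at 0 h, where 8.11% of all genes were. At 24 h, 48 of the 57 were called lower, against 5.74% of all genes. No member was called higher in any comparison with 0 h by limma, and at an unadjusted p under 0.05 STIL, CDCA2 and PTTG1 were higher at both 4 h and 8 h, CDCA2 at 12 h, and 0 members at 24 h or 48 h. Of all genes, 1.16% were called higher at 4 h, with 3.5% at 8 h, 3.91% at 12 h, then 6.74% at 24 h and 6.92% at 48 h. The median difference of the members at 4, 8, 12, 24 and 48 h was -0.09, -0.22, -0.35, -1.26 and -2.20, while the median over all genes stayed between -0.02 and 0.05. On the linear scale, 50 members were at least 2-fold lower at 48 h, a called fall of that size being found in 4.14% of all genes. At least 8-fold lower were 15 members, and the share of all genes at that size was not counted.

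**Figure D1:**
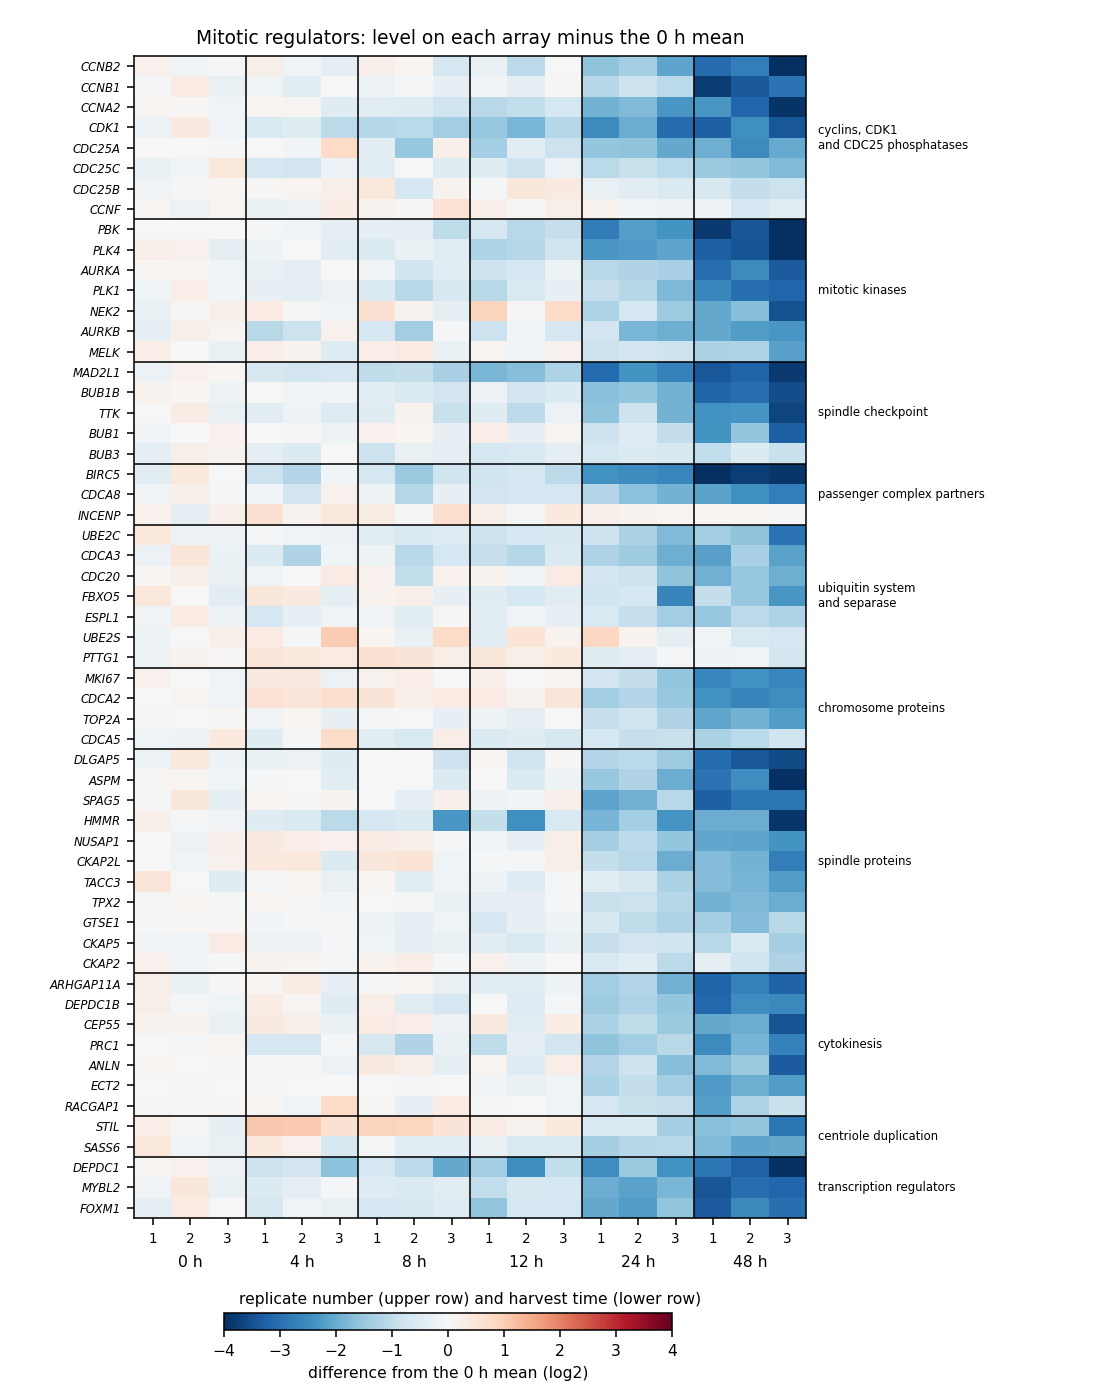
Level of each of the 57 mitotic regulators (rows, grouped by role) on each of the 18 arrays (columns, by harvest time and replicate number), as the log2 difference from the gene's own 0 h mean; differences beyond -4 share the darkest blue. The 24 h and 48 h columns are blue for nearly every gene, while CCNF, INCENP, UBE2S and PTTG1 stay pale at 48 h.

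The arrays of a late harvest were not equally low. Replicate 3 of 48 h gave the lowest of the 3 values for 39 of the 57 members, and replicate 3 of 24 h for 42. How often this held over all genes was not counted. Without replicate 3 of 24 h, 38 members were called lower at 24 h; without replicate 3 of 48 h, 51 were called lower at 48 h. At 48 h, 53 members had all 3 arrays below all 3 arrays of 0 h, an arrangement seen for 13.2% of all genes. At 24 h this held for 52 members, against 13.6% of all genes. PBK on replicate 3 of 48 h, at 3.10, was the single 48 h value of a member below the lower quartile of its array, which was 3.42. The mean level was below 5 for 26 members at 48 h and for 2 at 0 h. How far low levels limited the size of the falls was not tested.

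Many promoters of late cell cycle genes carry a cell cycle genes homology region, or CHR, a short element close to the transcription start, with CCAAT boxes upstream of it. The RefSeq promoter table (GRCh38.p14) holds a window from 250 bases before to 50 bases after the start for 47 of the 57 members, and the first window listed for each gene was searched on both strands. AURKA, BIRC5, BUB3, CDCA2, FOXM1, PBK, RACGAP1, TPX2, TTK and UBE2C had no window in it. The letters of the CHR (TTTGAA or TTCGAA) occurred in 30 of 47 windows, or 63.8%, against 13.3% of the windows of 14239 measured genes. Its first base lay between 40 bases before and 10 bases after the start in 20 members, or 42.6%, against 2.13% of measured genes. CCAAT occurred in 33 windows, or 70.2%, against 36.3%, and both sets of letters in 25, or 53.2%, against 5.44%. The windows of DNA replication genes, another set that fell in these cells, held CCAAT nearly as often, in 17 of 26, or 65.4%. They differed in the other letters: the CHR was found in 2 of 26, or 7.69%. An E2F element (TTTGGCGC, TTTCCCGC, TTTCGCGC or TTTGCCGC) was found in 15, or 57.7%, against 6 of 47 members, or 12.8%, and 4.52% of measured genes. These are matches of letters and were not tested for binding.

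**Figure D2:**
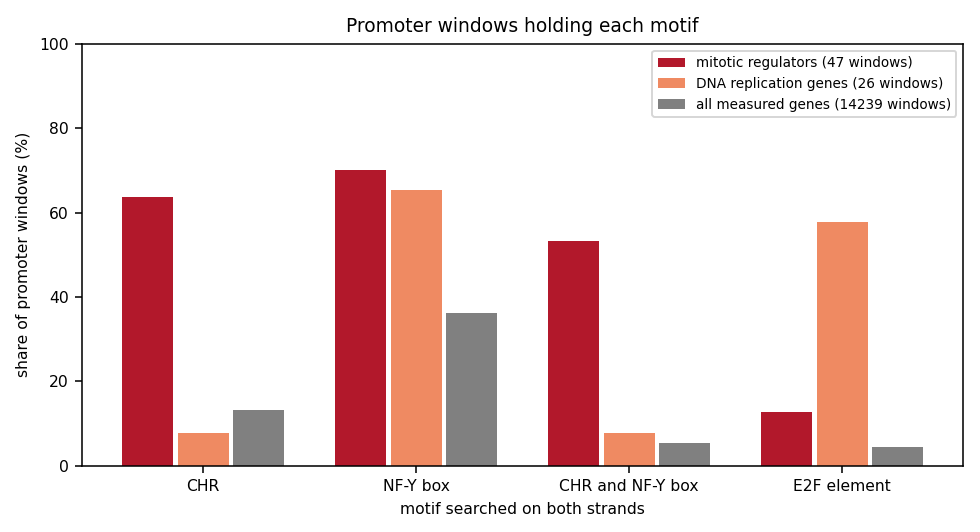
Share of RefSeq promoter windows (in percent, bars from 0) that hold the CHR, the CCAAT box bound by NF-Y, both, or an E2F element, for 47 mitotic regulators (red), 26 DNA replication genes (orange) and 14239 measured genes (grey). The CHR bar is at 63.8% for the mitotic regulators and 7.69% for the replication genes, and the E2F bars stand the other way, at 12.8% and 57.7%.

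Stretches from 180 bases before to 20 bases after the start are shown for 8 members on which the values below turn, 5′ to 3′, with CHR and CCAAT matches on either strand in capitals (TTCAAA and ATTGG are the same letters read on the other strand). CCNB1 lies at chr5:69166970-69167169 on the plus strand, CCNB2 at chr15:59104966-59105165 on the plus strand, CDK1 at chr10:60778151-60778350 on the plus strand and PLK1 at chr16:23678709-23678908 on the plus strand. CDC20 lies at chr1:43358801-43359000 on the plus strand, MKI67 at chr10:128126404-128126603 on the minus strand, DEPDC1 at chr1:68497063-68497262 on the minus strand and INCENP at chr11:62123831-62124030 on the plus strand. CCNB2 and PLK1 show the arrangement most plainly, with the CHR starting 29 bases before the transcription start in each (position -29) and CCAAT boxes upstream. CCNB1 has 2 CCAAT boxes and no CHR letters here, in CDK1 the CHR starts at -161, and in MKI67 a CHR and a reversed CCAAT share a base. INCENP has a CHR at -10 and 3 CCAAT boxes, and it is shown because its level did not move with the others.
CCNB1: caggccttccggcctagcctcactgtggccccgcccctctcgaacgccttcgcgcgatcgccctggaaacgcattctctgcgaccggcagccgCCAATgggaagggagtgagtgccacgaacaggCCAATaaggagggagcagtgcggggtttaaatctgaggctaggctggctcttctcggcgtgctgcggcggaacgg
CCNB2: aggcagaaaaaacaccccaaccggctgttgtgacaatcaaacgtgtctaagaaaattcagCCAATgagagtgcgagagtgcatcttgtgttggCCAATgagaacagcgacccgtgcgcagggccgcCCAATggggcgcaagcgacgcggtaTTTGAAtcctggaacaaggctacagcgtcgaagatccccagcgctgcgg
CDK1: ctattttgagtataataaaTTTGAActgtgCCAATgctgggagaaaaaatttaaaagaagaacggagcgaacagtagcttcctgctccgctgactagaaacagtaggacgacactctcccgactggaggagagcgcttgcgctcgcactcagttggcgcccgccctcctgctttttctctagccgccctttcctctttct
PLK1: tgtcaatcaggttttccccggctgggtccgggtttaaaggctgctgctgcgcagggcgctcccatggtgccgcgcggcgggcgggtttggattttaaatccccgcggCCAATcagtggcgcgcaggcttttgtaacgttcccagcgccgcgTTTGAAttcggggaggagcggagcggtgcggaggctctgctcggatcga
CDC20: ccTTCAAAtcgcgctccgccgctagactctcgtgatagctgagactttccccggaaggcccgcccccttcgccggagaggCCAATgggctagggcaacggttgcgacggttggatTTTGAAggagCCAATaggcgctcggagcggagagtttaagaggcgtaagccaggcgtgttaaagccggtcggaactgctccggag
MKI67: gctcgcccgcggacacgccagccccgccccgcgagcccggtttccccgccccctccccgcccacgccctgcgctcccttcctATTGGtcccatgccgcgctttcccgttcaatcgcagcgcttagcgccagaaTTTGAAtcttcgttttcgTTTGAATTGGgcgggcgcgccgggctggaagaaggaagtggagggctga
DEPDC1: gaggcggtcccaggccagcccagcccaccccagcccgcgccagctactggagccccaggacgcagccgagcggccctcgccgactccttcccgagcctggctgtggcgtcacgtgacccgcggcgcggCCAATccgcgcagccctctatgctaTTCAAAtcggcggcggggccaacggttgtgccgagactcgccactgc
INCENP: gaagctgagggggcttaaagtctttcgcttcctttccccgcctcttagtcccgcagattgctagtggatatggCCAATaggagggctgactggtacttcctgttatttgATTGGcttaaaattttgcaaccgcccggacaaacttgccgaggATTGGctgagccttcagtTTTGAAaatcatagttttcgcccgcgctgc

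The depth of the fall was given beside these letters for description. The 30 members with CHR letters had a median difference of -2.43 at 48 h and 28 of them were called lower. The 17 members with a window but no CHR letters had a median of -1.97, and 15 were called lower. CCNB1, without the letters, had one of the deepest falls and INCENP, with them, had none.

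Among the 8 genes of the cyclin, CDK1 and CDC25 group, 6 were called lower at 24 h and 7 at 48 h. CDK1, the kinase that drives entry into mitosis, was the earliest of the group. Its log2 levels were 7.36, 7.95 and 7.47 at 0 h, 6.97, 7.12 and 6.54 at 4 h, 6.45, 6.51 and 6.21 at 8 h and 6.08, 5.76 and 6.46 at 12 h. They were 5.04, 5.60 and 4.52 at 24 h and 4.32, 5.14 and 4.20 at 48 h. Every array from 4 h on was below every 0 h array. The difference from 0 h was -1.21 (SE 0.28, adjusted p = 0.0141) at 8 h, -2.54 (SE 0.28, adjusted p = 1.04e-05) at 24 h and -3.04 (SE 0.28, adjusted p = 7.25e-07) at 48 h. The 8 h call was lost under 2 of 27 alternative settings.

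CCNB1, the cyclin that activates CDK1 at mitosis, kept its level far longer. It stood at 7.87, 8.28 and 7.65 at 0 h, between 7.47 and 7.97 on the 9 arrays from 4 h to 12 h, at 6.79, 7.12 and 6.87 at 24 h and at 4.14, 4.58 and 4.98 at 48 h. The 24 h arrays lay below all earlier ones and the 48 h arrays far below those of 24 h. CCNB1 was called lower at 24 h against 0 h, at -1.01 (SE 0.21, adjusted p = 0.0029). Its difference was -2.36 (SE 0.21, adjusted p = 1.38e-05) at 48 h against 24 h, the deepest fall of any member over that interval, and -3.37 (SE 0.21, adjusted p = 6.69e-09) against 0 h, or 10.3 times lower on the linear scale. CCNB2, a second B-type cyclin, had 6.14, 6.45 and 4.93 at 48 h, against 9.39, 9.11 and 9.18 at 0 h, a difference of -3.39 (SE 0.35, adjusted p = 2.39e-06). Replicate 3 of 48 h was the lowest of its arrays, and the groups did not overlap.

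CCNA2, cyclin A, which acts in S phase and in early mitosis, sank gradually. Its mean levels were 8.98 ± 0.14 at 0 h, then 8.87 ± 0.33 and 8.41 ± 0.19 at 4 h and 8 h, 8.05 ± 0.20 at 12 h, and 6.98 ± 0.29 and 5.83 ± 0.80 at the 24 h and 48 h harvests (SD, n = 3). The 48 h arrays spread widely, at 6.65, 5.79 and 5.05, yet all were below the lowest 0 h array at 8.82. The difference was -2.0 (SE 0.29, adjusted p = 0.000131) at 24 h and -3.15 (SE 0.29, adjusted p = 5.72e-07) at 48 h. The CDC25 phosphatases remove inhibitory phosphates from CDKs. CDC25A had a difference of -2.17 (SE 0.34, adjusted p = 0.000209) at 48 h, CDC25C of -1.59 (SE 0.20, adjusted p = 2.58e-05) and CDC25B of -0.82 (SE 0.22, adjusted p = 0.0139). CDC25B lost its call without replicate 2 of 48 h. CCNF, an F-box protein, was not called, with 4.53, 4.08 and 4.32 at 48 h against 4.87, 4.52 and 4.86 at 0 h, a difference of -0.44 (SE 0.19, adjusted p = 0.141). Over the 18 arrays its level lay between 4.08 and 5.34, and it was called lower at 48 h after quantile normalization or after centring the arrays on their medians.

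All 7 mitotic kinases were called lower at 48 h and 6 at 24 h. PLK1, the Polo-like kinase that acts from mitotic entry to cytokinesis, stood at 7.0, 7.43 and 7.07 at 0 h, 6.06, 6.55 and 6.83 at 12 h, 6.23, 6.03 and 5.36 at 24 h and 4.56, 4.15 and 4.00 at 48 h. Its 48 h arrays were below every other array of the series, and the difference was -1.64 (SE 0.24, adjusted p = 0.00243) against 24 h and -2.93 (SE 0.24, adjusted p = 1.41e-07) against 0 h. AURKA, the Aurora kinase of spindle poles, had 5.10, 5.57 and 4.80 at 48 h and 7.02, 6.94 and 6.83 at 24 h, against 8.22, 8.23 and 7.95 at 0 h. Each of the 3 times was clear of the other 2. The difference at 48 h was -2.97 (SE 0.21, adjusted p = 4.02e-08), of which -1.77 came after 24 h (adjusted p = 0.000459).

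AURKB, the Aurora kinase of the passenger complex, was lower at both late times. It had 5.39, 5.19 and 5.11 at 48 h and 6.66, 5.58 and 5.48 at 24 h, against 7.07, 7.67 and 7.53 at 0 h. The later arrays did not reach the 0 h range at either time, with a difference of -1.52 (SE 0.36, adjusted p = 0.0091) at 24 h and -2.19 (SE 0.36, adjusted p = 0.000356) at 48 h. PBK, a kinase active in mitotic cells, had the deepest fall of the 57 as fitted here: 4.35, 4.76 and 3.10 at 48 h, against 8.17, 8.16 and 8.20 at 0 h, a difference of -4.10 (SE 0.30, adjusted p = 5.6e-08) or 17.2 times lower. The 3 arrays of 48 h differed by more than 1 log2 unit among themselves, and all lay more than 3 units below those of 0 h. Without replicate 3 of 48 h, the array on which PBK was below the lower quartile, PBK, 48 h against 0 h, was at -3.62 and BIRC5, 48 h against 0 h, at -3.90. PLK4, the kinase that starts centriole duplication, was called already at 12 h, at -1.06 (SE 0.23, adjusted p = 0.00605), and reached -3.66 (SE 0.23, adjusted p = 6.69e-09) at 48 h with 5.08, 4.88 and 4.09 against 8.56, 8.51 and 7.96 at 0 h.

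NEK2, a kinase that separates centrosomes, was called against 0 h at 48 h, and at 24 h under 12 of 27 alternative settings though not as fitted here (adjusted p = 0.0515). Its means were 7.27 ± 0.28 at 0 h, then 7.31 ± 0.27 and 7.41 ± 0.48 at 4 h and 8 h, 7.83 ± 0.45 at 12 h, and 6.14 ± 0.39 and 4.86 ± 0.94 at the 24 h and 48 h harvests. The 12 h level was not called different from 0 h, at 0.56 (SE 0.37, adjusted p = 0.428). Its step of -1.69 (SE 0.37, adjusted p = 0.0253) at 24 h against 12 h was the deepest of any member over that interval, and was lost under 4 of 27 settings. MELK, a kinase of proliferating cells, kept 7.12 ± 0.54 at 48 h against 8.68 ± 0.29 at 0 h, the smallest fall of the group at -1.56 (SE 0.25, adjusted p = 0.000262).

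Of the 5 spindle checkpoint genes, all were called lower at 48 h and 4 at 24 h. MAD2L1, which with BUB1B holds CDC20 inactive, fell early and steadily: 8.21, 8.62 and 8.53 at 0 h, 7.83, 7.71 and 7.79 at 4 h, 7.43, 7.51 and 7.16 at 8 h, 6.61, 6.76 and 7.20 at 12 h, 5.35, 6.05 and 5.76 at 24 h and 5.05, 5.26 and 4.63 at 48 h. Arrays of neighbouring times overlapped at 12 h against 8 h and at no other step. It was called at 8 h, at -1.08 (SE 0.21, adjusted p = 0.00324), and ended at -3.47 (SE 0.21, adjusted p = 4.31e-09). BUB1B (BUBR1) had 6.04, 6.22 and 5.70 at 48 h, against 9.39, 9.33 and 9.03 at 0 h. It gave the smallest adjusted p of the members, with a difference of -3.26 (SE 0.17, adjusted p = 1.35e-09). It was also called at 8 h, at -0.58 (SE 0.17, adjusted p = 0.049), but that call was lost under 16 of 27 alternative settings.

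BUB1, the kinase that recruits other checkpoint proteins to kinetochores, had 9.47, 8.89 and 9.33 at 12 h, against 9.07, 9.19 and 9.38 at 0 h, ranges that overlapped. It was not called at 24 h (-0.77, adjusted p = 0.107), and at 48 h it had 6.83, 7.65 and 5.93, a difference of -2.41 (SE 0.29, adjusted p = 1.54e-05). TTK, the kinase MPS1 that starts checkpoint signalling, had a difference of -2.81 (SE 0.34, adjusted p = 1.62e-05) at 48 h. BUB3, which also serves outside the checkpoint, changed least in the group, with 7.50, 7.93 and 7.59 at 48 h against 8.10, 8.72 and 8.63 at 0 h. Its arrays of the 2 times did not overlap. The difference was -0.81 (SE 0.20, adjusted p = 0.00928), lost without replicate 2 of 0 h. Its 24 h call was lost under 14 of 27 settings, and BUB3 did not pass the F test over all times (adjusted p = 0.075). That test was passed by 53 members and by 16.4% of all genes.

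The chromosomal passenger complex joins AURKB to BIRC5, CDCA8 and INCENP, and the array values of its members parted. BIRC5, survivin, had 4.37, 4.64 and 4.52 at 48 h and 5.99, 5.89 and 5.81 at 24 h, against 8.00, 8.82 and 8.41 at 0 h. The 3 times were fully separate, with differences of -2.51 (SE 0.26, adjusted p = 4.2e-06) at 24 h and -3.90 (SE 0.26, adjusted p = 1.37e-08) at 48 h. A second BIRC5 probe set of lower level gave -1.52 at 24 h and -1.46 at 48 h. The size and the course after 24 h thus depend on the probe set, and the direction against 0 h does not. CDCA8, borealin, was at 4.09 ± 0.32 at 48 h, against 6.54 ± 0.18 at 0 h, a difference of -2.45 (SE 0.26, adjusted p = 3.81e-06). INCENP, the scaffold of the complex, had 5.09, 5.05 and 4.89 at 48 h, against 5.14, 4.61 and 5.18 at 0 h. The 48 h values lay within the range of the 0 h values. Its difference of 0.04 (SE 0.20, adjusted p = 0.939) was the smallest of the 57, and its sign turned under quantile normalization (-0.05) and after centring the arrays (-0.10). INCENP read low at every time. COL1A1, the brightest of the listed markers of other cell types, had 5.47, 4.86 and 5.06 at 0 h. Whether the INCENP probe set could register a fall was not tested.

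The 7 genes of the ubiquitin system and separase gave 5 calls at 24 h and 5 at 48 h, with a median difference of -1.60 at 48 h. CDC20, the activator of the anaphase-promoting complex, had 4.49, 4.89 and 4.43 at 48 h and 5.65, 5.54 and 4.78 at 24 h, against 6.49, 6.62 and 6.10 at 0 h. The later arrays stayed below the 0 h arrays at both times. Its difference was -1.08 (SE 0.29, adjusted p = 0.0174) at 24 h and -1.80 (SE 0.29, adjusted p = 0.000246) at 48 h, and the 24 h call was lost without replicate 1 or 2 of 0 h or replicate 3 of 24 h. FBXO5 (EMI1), an inhibitor of the same ligase, was uneven, with 8.01, 8.09 and 6.16 at 24 h, where replicate 3 stood apart. Its call at 48 h (-1.60 (SE 0.42, adjusted p = 0.0134)) was lost without replicate 1 of 0 h or replicate 3 of 48 h.

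The 2 ubiquitin-conjugating enzymes of the ligase differed in their values. UBE2C, which starts the chain, was at 4.86 ± 0.85 at 48 h, against 6.84 ± 0.36 at 0 h, a difference of -1.98 (SE 0.31, adjusted p = 0.000183). UBE2S, which extends the chain, had 5.24, 4.76 and 4.70 at 48 h, against 5.16, 5.36 and 5.58 at 0 h. These overlapped, and UBE2S was not called (-0.47 (SE 0.33, adjusted p = 0.427)); its second probe set gave -0.53. CDCA3, linked to the degradation of WEE1, was lower at -1.86 (SE 0.31, adjusted p = 0.000374).

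Securin and separase also differed. PTTG1, securin, the inhibitor that is destroyed at anaphase, stood at 8.93, 9.28 and 9.19 at 0 h, 9.61, 9.57 and 9.48 at 4 h, 9.75, 9.64 and 9.37 at 8 h, 9.58, 9.37 and 9.51 at 12 h, 8.65, 8.78 and 9.08 at 24 h and 8.92, 8.98 and 8.39 at 48 h. The 4 h, 8 h and 12 h arrays were all above the 0 h arrays, while those of 24 h and 48 h overlapped with them. No time was called against 0 h (at 4 h 0.42 (SE 0.17, adjusted p = 0.298), at 48 h -0.37 (SE 0.17, adjusted p = 0.181)), yet PTTG1 passed the F test over all times (adjusted p = 0.00326). Near-identical copies of this gene exist in the genome and may share its probes. ESPL1, separase, which cuts cohesin, was at 4.34 ± 0.23 at 48 h, against 5.62 ± 0.28 at 0 h, a difference of -1.28 (SE 0.21, adjusted p = 0.000394).

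The 4 chromosome proteins were all called lower at 24 h and at 48 h. TOP2A, the topoisomerase that untangles sister chromatids, had 8.15, 8.35 and 8.00 at 48 h and 9.31, 9.44 and 9.02 at 24 h, against 10.20, 10.20 and 10.29 at 0 h. The 3 times were separate, and the difference at 48 h was -2.06 (SE 0.16, adjusted p = 9.49e-08). MKI67 (Ki-67), the coat protein of mitotic chromosomes used as a marker of proliferation, was not called up to 12 h, where it had 9.44, 9.22 and 9.31 against 9.42, 9.25 and 9.05 at 0 h. It then had 8.46, 8.30 and 7.71 at 24 h and 6.65, 6.82 and 6.64 at 48 h, with a difference of -1.17 (SE 0.20, adjusted p = 0.00377) at 24 h against 12 h and -1.46 (SE 0.20, adjusted p = 0.00133) at 48 h against 24 h. No array of a later time reached the range of the time before it over those steps. CDCA2 (Repo-Man), which brings a phosphatase to chromatin, had 7.22, 7.14 and 7.30 at 4 h, against 6.68, 6.75 and 6.51 at 0 h, all higher but not called (0.57 (SE 0.14, adjusted p = 0.0532)). It then fell by 1.67 at 24 h against 12 h (SE 0.14, adjusted p = 3.17e-06) and was at 4.23, 4.02 and 4.16 at 48 h. CDCA5, sororin, which guards cohesin, changed least here, at -1.04 (SE 0.27, adjusted p = 0.0112), a call lost without replicate 3 of 0 h or replicate 1 of 48 h, and its 24 h call was lost under 12 of 27 settings.

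All 11 spindle proteins were called lower at 24 h and at 48 h, with differences at 48 h from -3.35 to -0.80. The 24 h call was lost under 11 of 27 settings for TACC3, 5 for HMMR and 2 for CKAP2. DLGAP5 (HURP), which stabilizes kinetochore fibres, had 5.79, 5.49 and 5.28 at 48 h and 7.69, 7.80 and 7.42 at 24 h, against 8.66, 9.30 and 8.66 at 0 h. Over 2 log2 units of its fall came after 24 h, at -2.12 (SE 0.26, adjusted p = 0.000487). ASPM, a spindle pole protein, gave 5.64, 6.12 and 4.36 at 48 h, against 8.65, 8.71 and 8.44 at 0 h, a difference of -3.23 (SE 0.33, adjusted p = 2.01e-06). SPAG5 (astrin), also of spindle poles and kinetochores, was level at 12 h with 6.91, 7.01 and 7.33 and had 5.02, 5.20 and 6.02 at 24 h. The step at 24 h against 12 h was -1.67 (SE 0.25, adjusted p = 0.00136). HMMR, which works with TPX2 at the spindle, varied widely between replicates, at 9.03, 9.11 and 7.37 at 8 h and 7.71, 7.70 and 5.79 at 48 h. TPX2, the activator of AURKA, was even between replicates, with 7.93, 8.02 and 7.83 at 48 h against 9.79, 9.89 and 9.79 at 0 h and a difference of -1.89 (SE 0.14, adjusted p = 4.21e-08). CKAP2, a microtubule stabilizer, ended at 8.75 ± 0.41, against 9.55 ± 0.16 at 0 h, the smallest called difference of the 57 at -0.80 (SE 0.20, adjusted p = 0.00859), lost under 2 of 27 settings. CKAP5 (chTOG) and its partner TACC3 had differences of -1.01 and -1.95, NUSAP1, GTSE1 and CKAP2L of -2.19, -1.39 and -2.13.

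The 7 cytokinesis genes were all called lower at 48 h, and 6 of them at 24 h. ECT2, the exchange factor that activates RhoA at the cell equator, had 6.30, 6.61 and 6.33 at 48 h and 7.30, 7.60 and 7.21 at 24 h, against 8.55, 8.61 and 8.56 at 0 h. Its arrays from 0 h to 8 h all lay between 8.51 and 8.61, and the difference at 48 h was -2.16 (SE 0.14, adjusted p = 7.62e-09). RACGAP1, the centralspindlin subunit that binds ECT2, was called at 48 h (-1.45 (SE 0.27, adjusted p = 0.00112)), and at 24 h under 10 of 27 alternative settings though not as fitted here (adjusted p = 0.0597), with 5.53, 6.51 and 6.84 at 48 h against 7.77, 7.66 and 7.78 at 0 h. ARHGAP11A, a brake on RhoA, had the deepest fall of the group, at -3.04 (SE 0.21, adjusted p = 3.4e-08), though ARHGAP11B is a near-identical partial copy whose message the probes could also read. PRC1, which bundles the central spindle, was at 6.15 ± 0.44 at 48 h, against 8.52 ± 0.06 at 0 h. CEP55, of the midbody, was at 5.30 ± 0.83 at 48 h, against 7.80 ± 0.24 at 0 h. ANLN, anillin of the contractile ring, was at 6.51 ± 0.99 at 48 h, against 8.71 ± 0.07 at 0 h. DEPDC1B had a difference of -2.73 (SE 0.25, adjusted p = 5.17e-07) at 48 h.

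The pair of centriole genes that act beside PLK4 began differently. STIL, which recruits SASS6 to the new centriole, had 8.97, 8.93 and 8.49 at 4 h and 8.76, 8.75 and 8.41 at 8 h, against 8.16, 7.94 and 7.54 at 0 h. All of these early arrays were above the 0 h arrays, but neither time was called, with 0.92 (SE 0.29, adjusted p = 0.14) at 4 h and 0.76 (SE 0.29, adjusted p = 0.148) at 8 h. By 48 h STIL was at 6.19, 6.31 and 4.98, a called difference of -2.05 (SE 0.29, adjusted p = 7.38e-05). SASS6, the cartwheel protein, was at 8.29 ± 0.55 at 4 h, against 8.31 ± 0.38 at 0 h, and had a difference of -1.19 (SE 0.24, adjusted p = 0.00211) at 24 h and -1.97 (SE 0.24, adjusted p = 1.22e-05) at 48 h.

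The 3 transcription regulators were called lower at 12 h, at 24 h and at 48 h; at 12 h, 4.14% of all genes were called lower. FOXM1, the forkhead activator of late cell cycle genes, had 6.56, 7.48 and 7.46 at 12 h, 6.11, 5.93 and 6.58 at 24 h and 4.83, 5.56 and 5.14 at 48 h, against 7.80, 8.49 and 8.16 at 0 h. The 12 h arrays were below those of 0 h, replicate 1 by over 1 unit, with a difference of -0.98 (SE 0.26, adjusted p = 0.0231). MYBL2 (B-MYB), its partner on MuvB, had 7.13, 7.46 and 7.39 at 12 h, 6.12, 5.97 and 6.28 at 24 h and 4.69, 5.05 and 4.93 at 48 h, against 7.96, 8.56 and 7.80 at 0 h. These 4 times did not overlap, and the difference was -0.78 (SE 0.19, adjusted p = 0.0136) at 12 h and -3.22 (SE 0.19, adjusted p = 4.01e-09) at 48 h. DEPDC1, which has been described as a transcriptional co-repressor, had 6.58, 5.48 and 6.97 at 12 h and 5.06, 4.73 and 3.85 at 48 h, against 8.02, 8.14 and 7.71 at 0 h. Its replicates were uneven, and the difference was -1.62 (SE 0.41, adjusted p = 0.0198) at 12 h and -3.41 (SE 0.41, adjusted p = 1.4e-05) at 48 h. The 12 h calls of FOXM1, MYBL2 and DEPDC1 were lost under 3, 2 and 3 of 27 settings.

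**Figure D3:**
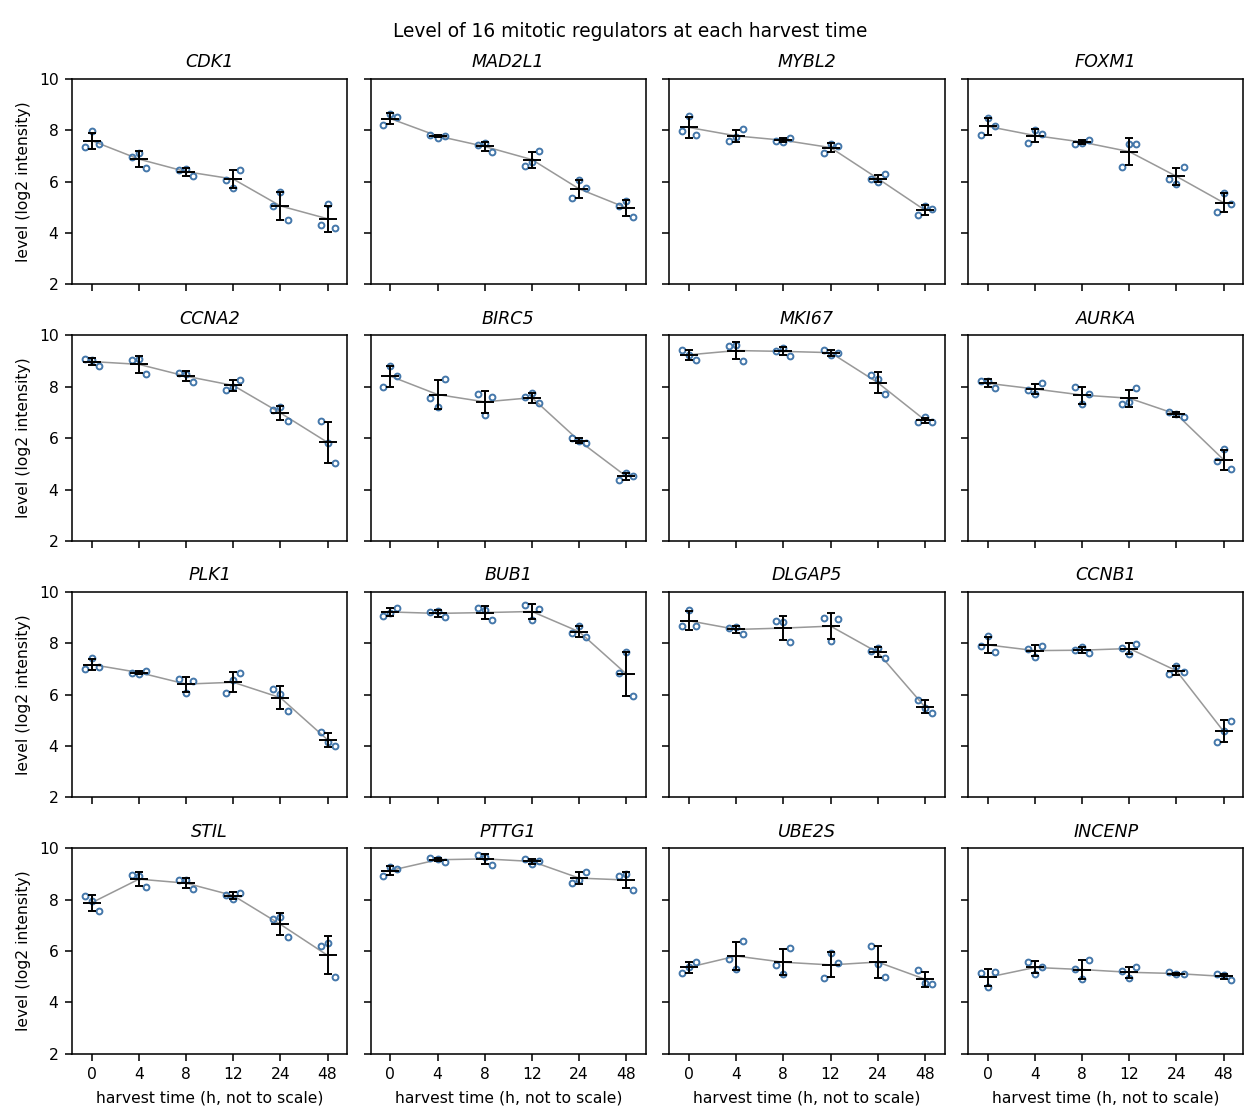
Log2 level of 16 mitotic regulators against harvest time (hours, evenly spaced and not to scale); open circles are the 3 arrays of a time, bars the mean ± SD, and grey lines join the means. CDK1 and MAD2L1 decline from 4 h, CCNB1, BUB1 and DLGAP5 keep their level to 12 h and fall most between 24 h and 48 h, and INCENP and UBE2S show no called change.

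The first calls came at different harvests. At 4 h, 0 members were called lower by limma (5 at an unadjusted p under 0.05), against 0.586% of all genes. At 8 h, CDK1, MAD2L1, BIRC5 and BUB1B were called, 4 of 57 against 3.18% of all genes, the BIRC5 call being lost under 4 of 27 settings. At 12 h, CDK1, MAD2L1, PLK4, FOXM1, MYBL2 and DEPDC1 were called, 6 of 57 against 4.14% of all genes, while BIRC5 and BUB1B were not called at that time. These early counts moved with single arrays: without replicate 2 of 0 h they were 1 at 8 h and 3 at 12 h, and without replicate 2 or replicate 3 of 8 h the 8 h count was 2. The 12 h count was 9 without replicate 3 of 48 h, 16 after centring the arrays on their medians, 14 with the arrays compared alone and 12 with array weights. Over all genes, 837, 1152, 944 and 1067 were called lower at 12 h under those settings, in that order, against 763 as fitted. Taking the first call of each gene, 4 members were first called at 8 h, another 4 at 12 h, then 40 at 24 h and the last 5 at 48 h. The 5 called last were BUB1, CDC25B, NEK2, RACGAP1 and STIL, of which NEK2 gained a 24 h call under 12 of 27 settings, RACGAP1 under 10, STIL under 4, BUB1 under 3 and CDC25B under 0.

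The called steps of members between neighbouring times all lay in the last 2 intervals. These intervals were also the longest, and falls per hour were not compared. At 24 h against 12 h, 19 members were called lower, or 33.3%, against 0.554% of all genes. At 48 h against 24 h, 22 members were called lower, or 38.6%, against 0.331% of all genes, so that they made up 22 of the 61 genes called lower there. At 8 h against 4 h no member was called by limma (2 lower at an unadjusted p under 0.05, with 0.103% of all genes called), and at 12 h against 8 h no gene was (1221 genes, 2 of them members with lower levels, at an unadjusted p under 0.05). The 19 calls at 24 h against 12 h were 9 when replicate 3 of 12 h was left out and 11 when replicate 1 of 24 h was, but 27 without replicate 3 of 48 h or with the replicate block and 38 with array weights. Over all genes, 102 were called lower there as fitted and 364 with array weights. The 22 calls at 48 h against 24 h were 13 without replicate 2 of 24 h, and 5 when the fit held the 6 arrays of those 2 times alone. Over all genes, the fit on those 6 arrays called 9 lower, against the 61 above. BIRC5 at -1.68 and PBK at -1.57 stood with NEK2, SPAG5 and CDCA2 as the deepest called falls of the earlier interval. CCNB2 at -1.70 and ASPM at -1.66 followed CCNB1, DLGAP5 and AURKA in the later one, the CCNB2 call being lost under 12 of 27 settings and that of ASPM under 4.

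For each of the 53 members called lower at 48 h, a midpoint was read off the mean levels, joined by straight lines between harvests. It is the time from which the level stayed past 50% of its difference between 0 h and 48 h, so an earlier passing crossing did not count. The range after leaving out each array in turn is given in brackets. The median midpoint was 22.02 h, with 3 members at or before 12 h, 37 between 12 h and 24 h, and 13 after 24 h. Early midpoints included those of CDK1 at 12.3 h (10.69 to 13.99 h) and MAD2L1 at 13.48 h (11.81 to 14.5 h). CDCA3 was at 12.74 h (10.82 to 15.37 h) and CKAP5 at 14.05 h (11.7 to 17.23 h). DEPDC1 was at 14.11 h (10.67 to 18.63 h) and CDC25A at 14.65 h (11.76 to 16.65 h). BUB3 at 5.85 h (3.53 to 9.26 h), HMMR at 11.33 h (6.37 to 17.89 h) and CDCA5 at 11.4 h (7.88 to 14.21 h) came earlier still, HMMR on uneven replicates and the others on small falls. In the middle stood FOXM1 at 18.27 h (17.17 to 19.64 h) and CCNA2 at 19.22 h (17.03 to 21.53 h). BIRC5 at 19.96 h (19.22 to 20.69 h) and MYBL2 at 20.24 h (19.48 to 21.36 h) followed. CDC20 was at 22.15 h (20.93 to 26.17 h). The BIRC5 midpoint is that of its brighter probe set, whose fall after 24 h the other did not share. Late midpoints included AURKA at 27.83 h (26.92 to 28.69 h), DLGAP5 at 29.02 h (28.28 to 30.23 h), BUB1 at 30.39 h (28.38 to 31.54 h) and CCNB1 at 30.88 h (30.15 to 31.75 h). CDK1 had covered 49.1% of its fall by 12 h, while its partner CCNB1 had covered 4.2% by 12 h and 29.9% by 24 h, and the ranges of the pair did not overlap. With no harvest between 24 h and 48 h, the later midpoints rest on a straight line over that day.

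**Figure D4:**
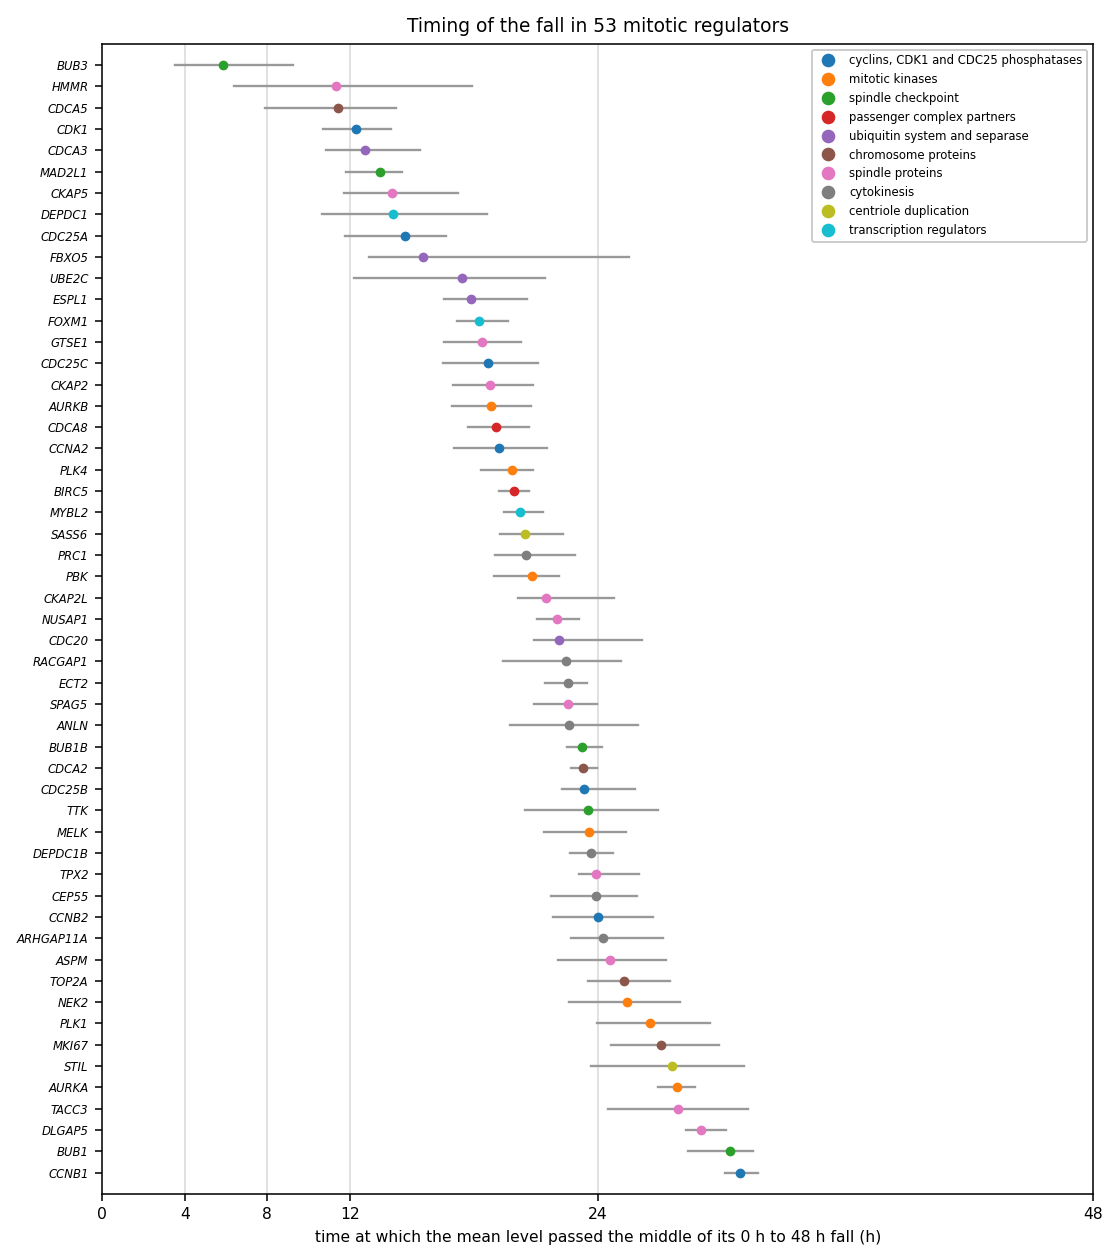
Midpoint of the fall (hours, to scale) for the 53 mitotic regulators called lower at 48 h, sorted from early to late; dots are coloured by role and grey bars give the range when each array is left out in turn. Most dots lie between 12 h and 24 h, CDK1 is at 12.3 h and CCNB1 at 30.88 h, with bars that do not meet.

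By the size of single steps, 23 members fell most at 24 h against 12 h and 28 at 48 h against 24 h, and BUB3 and CDCA5 fell most before 12 h. These sizes are per interval and not per hour, and the late intervals are the longest. The order of these counts was not stable: leaving out replicate 3 of 24 h gave 15 and 34, but leaving out replicate 2 of that harvest gave 30 and 20, omitting replicate 3 of 48 h gave 29 and 19, and they were 31 and 19 after quantile normalization. By role, the median midpoint was earliest for the ubiquitin system and separase at 17.42 h and the transcription regulators at 18.27 h, and latest for the chromosome proteins at 24.3 h, each over 3 to 5 genes of wide range. Of the 30 DNA replication genes, 27 were called lower at 24 h, with a median difference of -1.30, and 28 at 48 h, with a median of -1.97. RFC3 and CDC45, of clamp loading and the replicative helicase, had the deepest falls of that list, at -3.12 (SE 0.27, adjusted p = 3e-07) and -3.08 (SE 0.25, adjusted p = 1.42e-07). The median midpoint of its 28 called genes was 20.23 h, and 9 of them fell most at 48 h against 24 h. The difference in timing between the lists was not tested.

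Lists of genes that work beside the members had smaller median differences. Of 15 subunits of the anaphase-promoting complex, 7 were called lower at 48 h with a median difference of -0.53, led by ANAPC1 at -1.42 (SE 0.21, adjusted p = 9.79e-05) and ANAPC4 at -1.02 (SE 0.26, adjusted p = 0.0119). Of 12 MuvB, pocket protein and E2F genes, 7 were called lower and 1 higher, with a median of -0.65. LIN9, the MuvB subunit that contacts MYBL2, was at 3.94 ± 0.27 at 48 h, against 6.50 ± 0.29 at 0 h, a difference of -2.56 (SE 0.29, adjusted p = 6.6e-06). RBBP4, a histone-binding subunit, followed at -1.69 (SE 0.14, adjusted p = 2.95e-07), and LIN37 was the gene called higher, at 0.93 (SE 0.23, adjusted p = 0.0085).

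Among 13 genes that control CDK1 phosphorylation and its reversal, 2 were called lower at 48 h, BORA, a cofactor of AURKA in switching on PLK1, at -1.43 (SE 0.19, adjusted p = 3.3e-05) and WEE1, the kinase that inhibits CDK1, at -0.84 (SE 0.14, adjusted p = 0.000498). At 24 h 3 of the 13 were called lower. CDC14A, a phosphatase, was called higher at 4 h (1.33 (SE 0.25, adjusted p = 0.01)), at 8 h (1.01) and at 12 h (0.83). Of 13 centrosome and gamma-tubulin genes 5 were called lower at 48 h, with CEP152, the scaffold that recruits PLK4, at -2.43 (SE 0.19, adjusted p = 9.03e-08) and CEP135 at -1.68 (SE 0.24, adjusted p = 6.77e-05). Among 9 genes of the contractile ring and abscission, CIT, citron kinase, at -2.12 (SE 0.19, adjusted p = 5.09e-07) and SEPTIN2 at -0.56 (SE 0.18, adjusted p = 0.04) were lower and VPS4B, an abscission ATPase, was higher at 0.50 (SE 0.14, adjusted p = 0.0221). Of 8 cyclins and kinases of G1 and S phase, CCNE2 at -1.56 (SE 0.33, adjusted p = 0.00253) and CDK2 at -1.16 (SE 0.21, adjusted p = 0.000754) were lower. CENPJ and PDCD6IP, listed with these groups, were not analysed here.

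**Figure D5:**
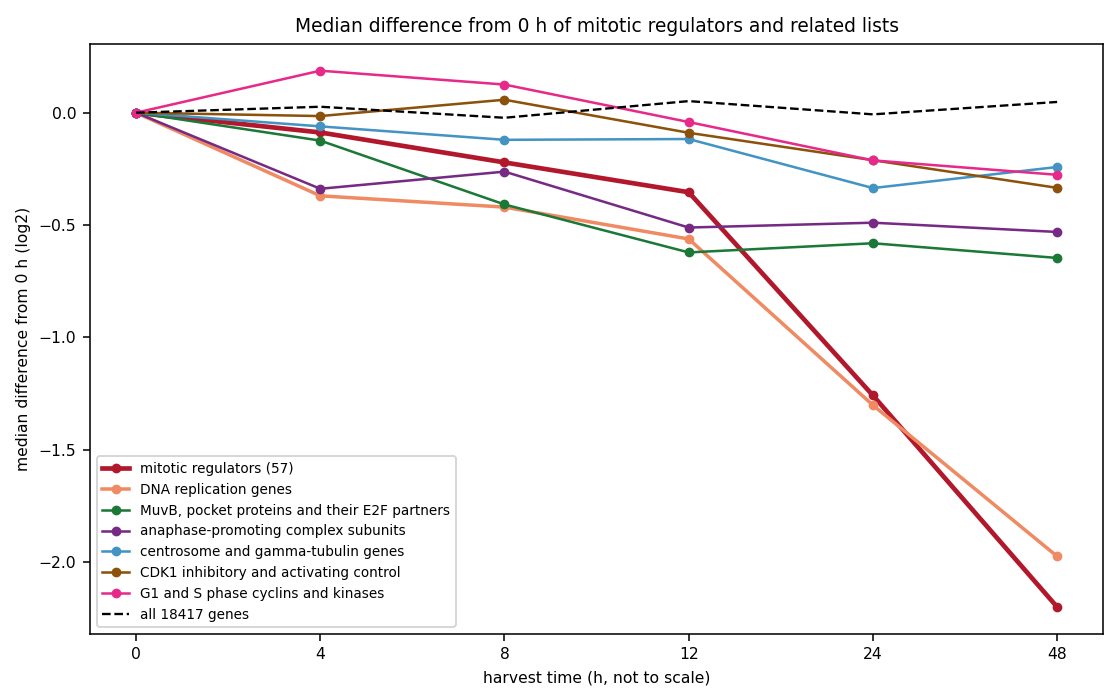
Median log2 difference from 0 h at each harvest time (hours, evenly spaced and not to scale) for the 57 mitotic regulators, 6 related gene lists and all 18417 genes (dashed). The mitotic regulators reach -2.20 and the DNA replication genes -1.97 at 48 h, while the other lists stay at or above -0.65.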

How the data were processed

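The 18 arrays were grouped by the harvest time in their labels. The intensities were used as deposited by the authors, on a log2 scale that was read from the range of the values, since the labels do not name the base; background correction, normalization and software are not given in the sources used here. Of 33297 probe sets, 19460 named 1 gene, and each of 18417 genes was taken from its probe set of highest mean. A linear model over all 18 arrays was fitted with limma 3.58.1 in R 4.3.3 (12 residual and 5.58 prior degrees of freedom), two-sided, and tested on simulated data. Adjusted p-values are Benjamini-Hochberg within a comparison, SE is that of the model, and no filter on dim genes was used. Precision is limited by the 3 arrays per time. The members and lists were chosen with earlier results of these data known. Named by rule were 12 core regulators, the 8 largest and 5 smallest differences at 48 h, the 5 largest called steps of each late interval and the members called at 8 h or 12 h; other members are named by role, after their values were seen, and from other lists the 2 largest called differences and single higher calls. Promoter letters come from the RefSeq table. Alternatives covered normalization, centring, array weights, a quartile filter, other probe-set rules, the interquartile range as a covariate, a fit on the arrays compared alone, a replicate block and leaving out each array.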

Additional observations from a re-analysis of the deposited data

How the results depend on the processing

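Most called directions held under the 27 alternatives: of the 48 members called lower at 24 h, 38 kept the call under every one (the exceptions being BUB3, CDCA5, TACC3, MELK, HMMR, ANLN, FBXO5, CDC20, CEP55 and CKAP2), and of the 53 at 48 h, 48 did, the exceptions being CDC25B, BUB3, FBXO5, CDCA5 and CKAP2. The early and stepwise counts moved more, for causes that were not tested. Members called lower at 8 h were 7 with array weights, which gave replicate 2 of 8 h a weight of 0.246, and 2 with the 6 arrays compared alone. At 12 h they were 16 with arrays centred on their medians, 12 with array weights and 14 with the arrays compared alone. At 24 h against 12 h they were 38 with array weights, and at 48 h against 24 h they were 5 with the arrays compared alone, which leaves fewer arrays to estimate the spread. The calls over all genes moved as well. Lower calls at 12 h were 1152, 1067 and 944 genes under those settings, in that order, against 763 as fitted. At 24 h against 12 h, array weights gave 364 genes, against 102. At 48 h against 24 h, the arrays compared alone gave 9, against 61. The median difference of the members was -0.18 at 4 h after centring and -0.093 at 8 h with array weights. Members whose largest fall was at 24 h against 12 h were 31 with quantile normalization, and those at 48 h against 24 h were 19. Leaving out 1 array at a time gave 1 to 5 members at 8 h, 3 to 9 at 12 h, 38 to 51 at 24 h, 51 to 53 at 48 h, 9 to 27 at 24 h against 12 h and 13 to 22 at 48 h against 24 h. It gave 15 to 30 members with their largest fall at 24 h against 12 h, and a 4 h median of -0.1543 to -0.0499. Signs turned for uncalled genes. INCENP, 48 h against 0 h, was -0.0531 with quantile normalization, -0.1032 centred and -0.0093 with array weights, and -0.1477 to 0.1383 leaving out 1 array at a time; for INCENP, 24 h against 0 h, that range was -0.0366 to 0.2494. Leaving out 1 array at a time also turned CCNF at 24 h (-0.1787 to 0.0168) and UBE2S at 24 h (-0.1175 to 0.4844). Centring moved the median difference of all genes at 24 h and 48 h to -0.0975 and -0.0921, and the calls over all genes at 48 h to 2054 lower and 900 higher, where they were 1493 and 1275 without it. The median correlation of deviations was 0.08 for arrays of equal replicate number and -0.06 for different numbers. Yet 15 of 18 arrays were closest to their own number, so arrays of equal number shared some deviation, which the main fit did not model. With the replicate block, 51 members were called lower at 24 h and 53 at 48 h. Over the late steps it called 27 at 24 h against 12 h and 25 at 48 h against 24 h. Searching any listed promoter window of a gene, an alternative chosen after seeing the data, found the CHR in 70.2% of members and 17.4% of measured genes.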
